A study of Homo sapiens with 6 samples.

Results

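The 10 genes described here encode the core of ATR and ATM checkpoint signalling: ATR, ATM, ATRIP, TOPBP1, RAD9A, RAD1, HUS1, CHEK1, CHEK2 and WEE1. They were chosen by gene name, and all 10 were found among the 33542 genes of the deposited table. RNA sequencing was performed on T24 cells, an established human bladder carcinoma line, in 2 groups of 3 libraries. Cells were transfected with a control small interfering RNA (siNC) or with one against TRAIP (siTRAIP), and no other agent or genotype is labelled. Column names of the siTRAIP libraries carry the tag siTR2; the siRNA sequence and the time after transfection were not stated. A Lipofectamine reagent was used for transfection in both groups. TRAIP is a RING-type ubiquitin ligase that acts on replication machinery when forks stall or converge, and the stated purpose was to look for what acts downstream of it in bladder cancer.

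ATR and ATM are large related kinases that start the response to damaged or stalled DNA. ATR, carried by its partner ATRIP, is recruited to RPA-coated single-stranded DNA, where TOPBP1, docked through the RAD9A-RAD1-HUS1 ring (the 9-1-1 clamp), switches it on. ATM responds mainly to double-strand breaks. Their effector kinases CHEK1 and CHEK2 restrain CDC25 phosphatases, and WEE1 adds the inhibitory phosphate to CDK1 and CDK2, so that division waits until replication is complete. This signalling works largely by phosphorylation, which transcript counts do not measure.

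Total gene counts ran from 39111793 (siTRAIP replicate 1) to 70439496 (siTRAIP replicate 3) per library. TRAIP itself stood at 26.6, 28.3 and 28.4 CPM (counts scaled to a common library total with TMM factors) in siNC replicates 1 to 3 and at 12.5, 14.7 and 11.6 CPM in siTRAIP replicates 1 to 3. The groups did not overlap, and TRAIP fell to a fold of 0.465 (-1.11 on the log2 scale, SE 0.075; edgeR, adjusted p = 6.74e-10). siTRAIP replicate 3, the deepest library, stood apart from its group. Its chi-square per degree of freedom against the other siTRAIP libraries was 17.4 and 18. Every other within-group pair had 3.35 to 7.93. This measure also grows with depth, and the part of depth was not tested. edgeR called 12.8% of the 18685 genes tested at an adjusted p of 0.05, with 1396 higher and 997 lower in siTRAIP. When library totals replaced the TMM factors, the split was 838 higher and 2050 lower. Of the epithelial and urothelial markers 12 of 14 were found, with summed levels of 735 to 756 RPKM (counts scaled by gene length and library total) in siNC and 649 to 714 RPKM in siTRAIP, carried by KRT7, KRT8 and KRT18. The label gives bladder tumor cells; the epithelial adhesion gene CDH1 and the urothelial genes KRT5, UPK1A and UPK3A were near 0 and did not pass the expression filter. Of the 8 epithelial markers tested 1 fell (KRT7) and none rose. Of the markers of other cell types, 3 of 9 fibroblast genes were tested and none passed, 1 of 8 leukocyte genes was tested, and none of 6 endothelial genes reached the filter. The leukocyte gene was CD68, also a lysosomal gene of other cells, which rose by 0.31 (log2, SE 0.06; edgeR, adjusted p = 9.17e-04; list sums 15.8 to 17.0 RPKM in siNC, 17.4 to 20.5 in siTRAIP), while PTPRC and MS4A1 were near 0. By limma on log2(RPKM + 0.1) and log2(RPKM + 1) CD68 did not pass (adjusted p = 0.0776 and 0.08). The part of these marker differences in the results was not tested. The labels do not state that replicates were grown separately, so each p-value reflects spread among the 6 libraries alone, which may be technical.

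Among the 10 checkpoint genes 1 rose and none fell (edgeR adjusted p under 0.05), a share of 10.0% beside the 12.8% of all tested genes. For single directions the background was 7.47% higher and 5.34% lower. CHEK1 was the gene that rose. At an unadjusted p under 0.05 (edgeR) the 10 genes held 3, beside 4629 of the 18685 tested genes. The 3 were CHEK1, RAD9A and RAD1, of which RAD9A and RAD1 were lower. DESeq2 called 1 of the 10 (CHEK1) and none lower, beside 2128 called of 13383 genes. The median log2 fold change of the 10 was 0.04, against -0.002 for all tested genes, and their median absolute change was 0.10, against 0.13. These medians were not matched for expression level. In mean RPKM the 10 lay above 62.8% (RAD9A) to 93.6% (TOPBP1) of detected genes. The siNC and siTRAIP libraries did not overlap for 4 of the 10 (ATR, RAD9A, CHEK1 and CHEK2), beside 29.1% of all tested genes. All 10 passed the filter on low counts. The 95% intervals of the log2 fold changes, not adjusted for the number of genes, lay between -0.49 and 0.34 for every gene of the set.

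**Figure D1:**
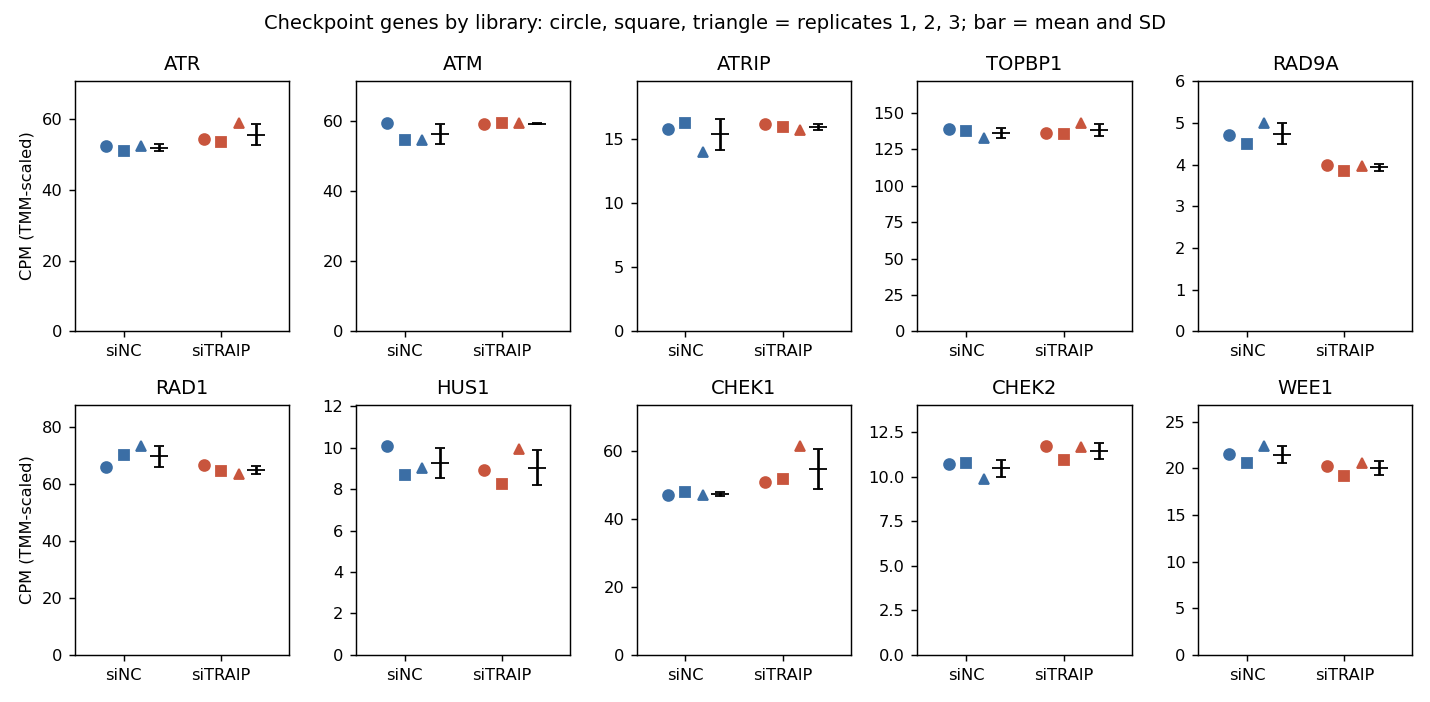
CPM (y axis, linear from 0, TMM-scaled) of each of the 10 checkpoint genes in the 3 siNC (blue) and 3 siTRAIP (red) libraries; marker shapes are replicates, and black bars show the mean and SD. CHEK1 is raised most in siTRAIP replicate 3 (61.5 CPM), and RAD9A lies lower in all siTRAIP libraries.

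ATR (chromosome 3, 142449235 to 142578826, minus strand, GRCh38), the kinase that answers stalled forks, stood at 52.6, 50.9 and 52.6 CPM in siNC and at 54.3, 53.5 and 59.0 CPM in siTRAIP. The siTRAIP libraries all lay above the siNC libraries, with replicate 3 highest. The difference of 0.10 in log2 (SE 0.05) missed the threshold (edgeR, adjusted p = 0.218), and it was 0.05 without siTRAIP replicate 3. In ATR, 16.4% of exonic bases are also those of RP11-383G6.4, which is transcribed the other way; the strand setting of the counting was not stated, so the ATR value is uncertain. ATRIP (chromosome 3, 48446710 to 48467645, plus strand) binds ATR and brings it to RPA. It stood at 15.8, 16.3 and 14.0 CPM in siNC and at 16.2, 15.9 and 15.8 CPM in siTRAIP, with overlapping groups. Its log2 fold change of 0.05 (95% interval -0.09 to 0.20) did not pass (edgeR adjusted p = 0.712) and changed sign without siNC replicate 3 and without TMM factors. ATRIP shares 33.8% of its exonic bases with TREX1, an exonuclease gene on the same strand, so reads there cannot be told apart.

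ATM (chromosome 11, 108222484 to 108369102, plus strand), the kinase of the break response, stood at 59.4, 54.4 and 54.5 CPM in siNC and at 59.0, 59.3 and 59.3 CPM in siTRAIP. The groups overlapped through siNC replicate 1, and the log2 fold change of 0.08 (95% interval -0.02 to 0.18) did not pass (edgeR adjusted p = 0.346). TOPBP1 (chromosome 3, 133598175 to 133661893, minus strand), the scaffold that activates ATR, was the most abundant of the set, at 139, 138 and 133 CPM in siNC and 136, 136 and 143 CPM in siTRAIP. Its groups overlapped, and its interval was the narrowest of the 10, from -0.07 to 0.11 (log2 fold change 0.02, edgeR adjusted p = 0.829), and the sign changed without TMM factors. No other gene of the table shares its exons.

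The promoters of TOPBP1, RAD9A and CHEK1 are shown because TOPBP1 alone holds an E2F word, RAD9A repeats one word 4 times, and CHEK1 is the gene that rose. Each is a RefSeq window (GRCh38.p14) from 250 bases before to 50 bases after a RefSeq start, read on the strand of the gene, 5′ to 3′. That start need not be the first base given for the gene elsewhere in this text. Capitals mark matches on either strand to an E2F site (written TTTCGCGC, or alternatively with the letters TTTGGCGC), to the box named CCAAT that the factor NF-Y binds, to the cell cycle element CHR with the letters TTTGAA, or to the E-box that MYC and related factors bind, which reads CACGTG, with no overlap between matches here. The windows are chr3:133661892-133662191 (minus strand), chr11:67391736-67392035 (plus strand) and chr11:125625979-125626278 (plus strand).
TOPBP1: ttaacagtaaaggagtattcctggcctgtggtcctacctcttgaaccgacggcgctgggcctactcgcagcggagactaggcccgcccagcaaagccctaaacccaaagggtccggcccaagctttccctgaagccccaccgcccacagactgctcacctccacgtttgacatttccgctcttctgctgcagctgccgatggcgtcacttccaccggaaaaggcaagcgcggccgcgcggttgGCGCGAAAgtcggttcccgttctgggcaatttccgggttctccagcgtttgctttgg
RAD9A: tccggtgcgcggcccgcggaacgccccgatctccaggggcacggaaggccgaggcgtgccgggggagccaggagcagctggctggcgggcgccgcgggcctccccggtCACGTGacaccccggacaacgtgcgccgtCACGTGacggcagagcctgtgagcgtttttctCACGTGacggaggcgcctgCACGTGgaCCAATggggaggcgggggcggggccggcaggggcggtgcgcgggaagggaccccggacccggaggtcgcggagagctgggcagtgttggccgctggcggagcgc
CHEK1: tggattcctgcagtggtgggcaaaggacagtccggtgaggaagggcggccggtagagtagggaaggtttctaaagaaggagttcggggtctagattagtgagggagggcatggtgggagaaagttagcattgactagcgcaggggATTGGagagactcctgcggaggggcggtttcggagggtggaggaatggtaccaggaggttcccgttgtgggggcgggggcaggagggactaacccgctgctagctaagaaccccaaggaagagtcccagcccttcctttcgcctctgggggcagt
The TOPBP1 window held TTTCGCGC on the reverse strand at 7 bases before the start; 0.515% of 35116 RefSeq windows of this length held that word and 1.15% held either E2F word. Among the 8 checkpoint genes with a window (12 windows in all; HUS1 and WEE1 had none), TOPBP1 was the only one with an E2F word. The RAD9A window held CACGTG 4 times, within 142 bases before the start, and a CCAAT box after them. Of all windows 7.26% held CACGTG at least once and 5 of 35116 held it 4 times or more. In the CHEK1 window shown, CCAAT on the reverse strand was the only match, and 34.6% of all windows held that word. For CHEK1 3 overlapping windows are listed. Those starting at 125625974 and 125625979 held CCAAT 1 time, and that starting at 125626106 held it 3 times. TTTGAA, in 15.2% of all windows, was found in ATM alone of the 8. These matches describe the sequence; binding was not measured.

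The 3 subunits of the 9-1-1 clamp, which is loaded at the edge of single-stranded gaps, all had negative log2 fold changes, and none passed; that of HUS1 turned positive without siNC replicate 1 or siTRAIP replicate 2. RAD9A (chromosome 11, 67317871 to 67398410, plus strand), whose tail docks TOPBP1, stood at 4.73, 4.50 and 5.01 CPM in siNC and at 4.003, 3.85 and 3.96 CPM in siTRAIP. Every siTRAIP library lay below every siNC library. At -0.27 in log2 (SE 0.11) it was the most negative of the set, but it did not pass (edgeR adjusted p = 0.112). RAD9A had 152 to 299 counts per library, and the part of depth was not tested. Of its exonic bases 5.47% are shared with PPP1CA, a protein phosphatase gene read in the other direction. RAD1 (chromosome 5, 34905264 to 34918989, minus strand) stood at 65.8, 70.0 and 73.1 CPM in siNC and at 66.5, 64.6 and 63.4 CPM in siTRAIP. The groups overlapped only through siNC replicate 1, and the difference of -0.10 in log2 (SE 0.05) missed the threshold (edgeR, adjusted p = 0.176). RAD1 has 2 annotated pseudogenes, and 7.12% of its exonic bases overlap BRIX1 in antisense, so its value is uncertain. HUS1 (chromosome 7, 47695730 to 47979581, minus strand) stood at 10.1, 8.67 and 9.01 CPM in siNC and at 8.93, 8.24 and 9.92 CPM in siTRAIP. The HUS1 groups overlapped, and its log2 fold change of -0.03 (95% interval -0.21 to 0.16) did not pass (edgeR adjusted p = 0.897). When library totals replaced the TMM factors, RAD9A and RAD1 passed as lower, by log2 fold changes of -0.33 and -0.16 (edgeR adjusted p = 0.0432 and 0.0216); the median of all genes was then -0.06.

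CHEK1 (chromosome 11, 125625136 to 125676255, plus strand), the kinase through which ATR slows origin firing and entry into mitosis, stood at 47.2, 48.1 and 47.1 CPM in siNC and at 51.0, 51.7 and 61.5 CPM in siTRAIP. All siTRAIP libraries lay above all siNC libraries, and siTRAIP replicate 3 was well above the other two. From 47.4 ± 0.57 to 54.7 ± 5.83 CPM (SD, n = 3 each), CHEK1 rose 1.16-fold (0.21 in log2 with an SE of 0.06; edgeR, adjusted p = 0.0234). Without siTRAIP replicate 3 the log2 fold change was 0.12 and no longer passed (edgeR adjusted p = 0.0947). The call was also lost without siNC replicate 1, 2 or 3 (edgeR adjusted p = 0.0933, 0.0702 and 0.0953), with library totals in place of TMM factors (0.15, edgeR adjusted p = 0.0938) and by limma fitted to log2(RPKM + 0.1) or log2(RPKM + 1), where adjusted p was 0.286 and 0.289. STT3A shares 1.22% of the exonic bases of CHEK1.

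CHEK2 (chromosome 22, 28687743 to 28742422, minus strand), the effector kinase of ATM, stood at 10.7, 10.8 and 9.88 CPM in siNC and at 11.7, 10.9 and 11.7 CPM in siTRAIP. The groups did not overlap, by a narrow margin between siNC replicate 2 and siTRAIP replicate 2, and the log2 fold change of 0.13 (95% interval -0.03 to 0.29) did not pass (edgeR adjusted p = 0.315). HSCB, in antisense, overlaps 7.27% of its exonic bases and 4 pseudogenes are annotated, so reads may be split between copies. WEE1 (chromosome 11, 9573681 to 9593457, plus strand) stood at 21.5, 20.6 and 22.4 CPM in siNC and at 20.3, 19.2 and 20.6 CPM in siTRAIP. Its groups overlapped slightly, and the log2 fold change of -0.10 (95% interval -0.23 to 0.03) did not pass (edgeR adjusted p = 0.34).

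**Figure D2:**
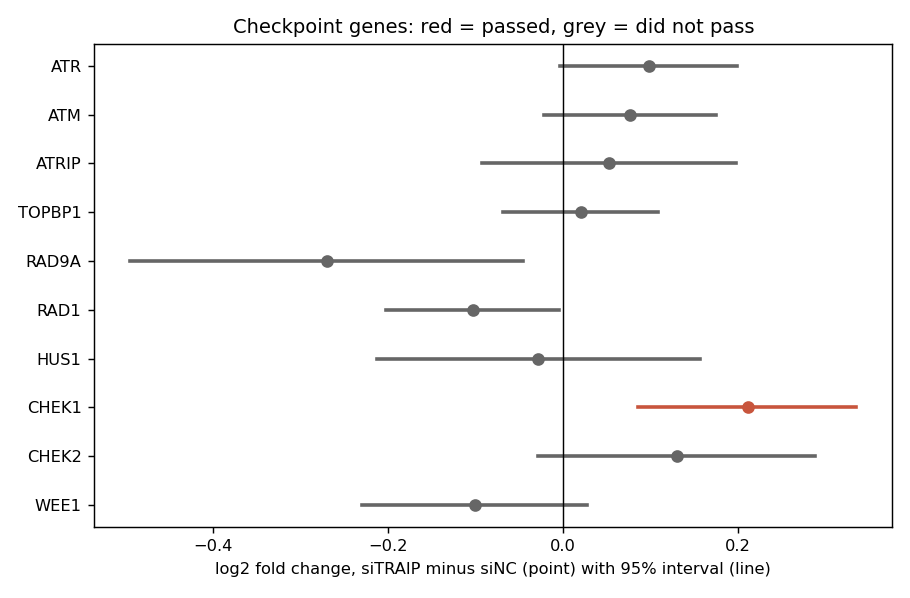
Log2 fold change (x axis, siTRAIP minus siNC; points) with its unadjusted 95% interval (lines) for each checkpoint gene. CHEK1 (red) passed with 0.21; the other 9 (grey) did not, and RAD9A lies farthest to the left at -0.27.

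Levels per length spanned a wide range within the set. The length used was that of all annotated exonic bases of a gene, whether or not these cells use them. Comparisons of level between genes are therefore approximate. In siNC, TOPBP1 led with 21.4 ± 0.487 RPKM, followed by RAD1 with 10.5 ± 0.578, CHEK1 with 7.38 ± 0.0253 and ATR with 4.25 ± 0.116 RPKM (SD, n = 3 each). ATRIP followed at 2.89 RPKM, CHEK2 at 2.58, ATM at 2.57, WEE1 at 2.37 and HUS1 at 2.26 RPKM. RAD9A was lowest, at 1.16 ± 0.0728 RPKM. In siNC, the ranges of CHEK2 and ATM, of ATM and WEE1, and of WEE1 and HUS1 overlapped, so those neighbours did not differ beyond their spread. The order of the means was the same in siTRAIP, where TOPBP1 stood at 20.8 and RAD9A at 0.924 RPKM, and CHEK2 with ATM and WEE1 with HUS1 overlapped. On this scale, which does not use TMM factors, the summed level of the 10 was 56.9 to 57.9 RPKM in siNC and 54.9 to 58.2 RPKM in siTRAIP.

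**Figure D3:**
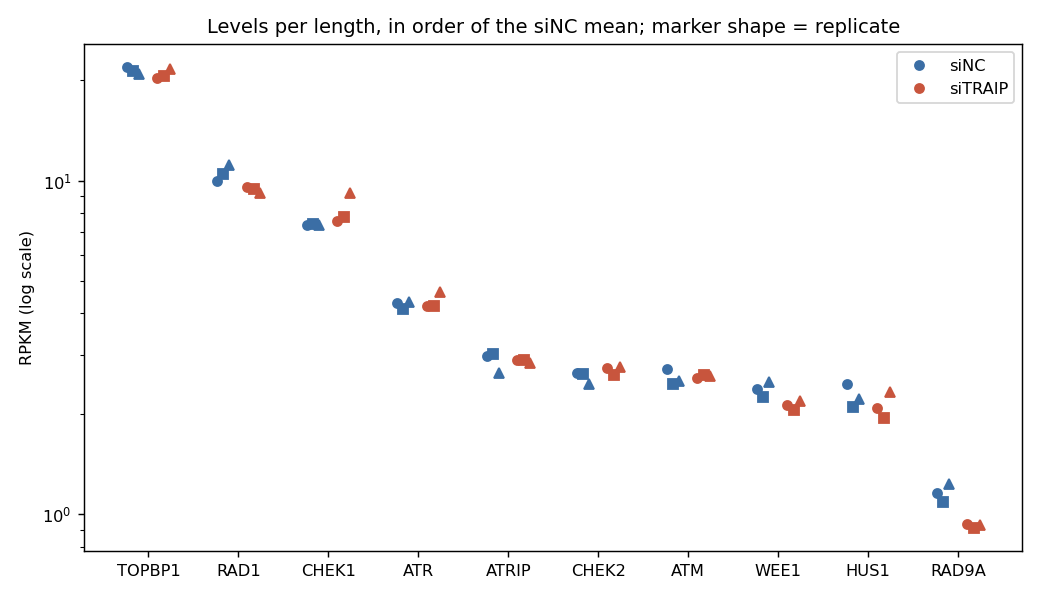
RPKM as deposited (y axis, log scale) of each checkpoint gene by library, ordered by the siNC mean; blue is siNC, red is siTRAIP, and marker shapes are replicates. Levels run from TOPBP1 at about 21.4 RPKM down to RAD9A at about 1.16 RPKM in siNC.

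Ratios of RPKM within a library do not depend on how libraries are scaled, and 9 were computed for genes that work together or do related work. With 3 libraries against 3 the exact permutation test (2-sided, 20 arrangements) cannot go below 0.1, or 0.18 after Benjamini-Hochberg adjustment over the 9, so no ratio could pass. The clamp subunits differed in RPKM, with the limit on length given above. RAD1 was at 9.05 ± 0.506 times RAD9A in siNC and 10.2 ± 0.252 times in siTRAIP. HUS1 was at 1.95 ± 0.166 and 2.29 ± 0.189 times RAD9A (SD, n = 3 each). Both ratios lay higher in every siTRAIP library than in every siNC library (exact permutation p = 0.1 each, the smallest possible). The RAD1 to HUS1 ratio was 4.68 in siNC and 4.46 in siTRAIP, with overlapping groups (exact permutation p = 0.5). ATR stood at 1.48 ± 0.138 times its partner ATRIP in siNC and 1.52 ± 0.0982 times in siTRAIP, and at 1.66 and 1.68 times ATM; neither ratio separated the groups (exact permutation p = 0.6 and 0.8). CHEK1 was at 2.87 times CHEK2 in siNC and 3.02 times in siTRAIP, also with overlap (exact permutation p = 0.7). The CHEK1 to WEE1 ratio went from 3.11 ± 0.165 to 3.85 ± 0.328 without overlap (exact permutation p = 0.1). All 9 ratios come from the same libraries as the tests of single genes and add no separate support.

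The ATR branch holds further proteins that work beside these 10. Of 14 such genes 13 were tested, 5 rose and none fell (38.5%, beside 12.8% of all genes), and the list median was 0.11. Among the S phase genes described below 56.4% were called, and among the G2/M genes 37.2%, so such a share was not particular to this list. The list was chosen with earlier results of these data known. ETAA1, a second activator of ATR that acts apart from TOPBP1, stood at 39.2, 39.4 and 40.7 CPM in siNC and at 53.01, 51.5 and 55.4 CPM in siTRAIP (0.42 in log2, SE 0.05; edgeR, adjusted p = 1.28e-06). TIMELESS, of the fork protection complex that helps ATR reach CHEK1, averaged 173 ± 4.32 CPM in the controls and 206 ± 11.4 CPM after siTRAIP (SD over 3 libraries; 0.25 in log2; edgeR, adjusted p = 3.70e-04). Its partner TIPIN went from 17.7 to 21.9 CPM (0.31, edgeR adjusted p = 0.00898), with 21.0% of its exonic bases shared with RPL9P25. CLSPN, the mediator that presents CHEK1 to ATR, averaged 249.2 ± 9.18 CPM in the controls and 294 ± 6.40 CPM after siTRAIP (SD over 3 libraries; 0.24 in log2; edgeR, adjusted p = 3.80e-04). The fifth was NEK1, a kinase reported to work with ATR (0.19, edgeR adjusted p = 0.0128), named after its values were seen. None of the 5 overlapped between groups, which is likely for genes called in the same libraries. Of all tested genes 29.1% did not overlap. The count of ATR branch partners that rose was also 5 without siTRAIP replicate 3. With limma on log2(RPKM + 0.1) and on log2(RPKM + 1) the count was 2, namely ETAA1 and CLSPN. The calls of TIMELESS (limma adjusted p = 0.0534 and 0.0546), TIPIN (0.155 and 0.159) and NEK1 were lost. That of TIPIN was also lost without siNC replicate 1 (edgeR adjusted p = 0.0632). That of NEK1 was also lost with library totals and without siNC replicate 3 or siTRAIP replicate 1, where the count was 4. The ratio of TOPBP1 to ETAA1, the pair of ATR activators, was 1.84 ± 0.0837 in siNC and 1.39 ± 0.0183 in siTRAIP (SD, n = 3 each). The groups did not overlap (exact permutation p = 0.1, the smallest possible). ETAA1 had already been called from the same libraries, so the ratio adds no separate support.

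**Figure D4:**
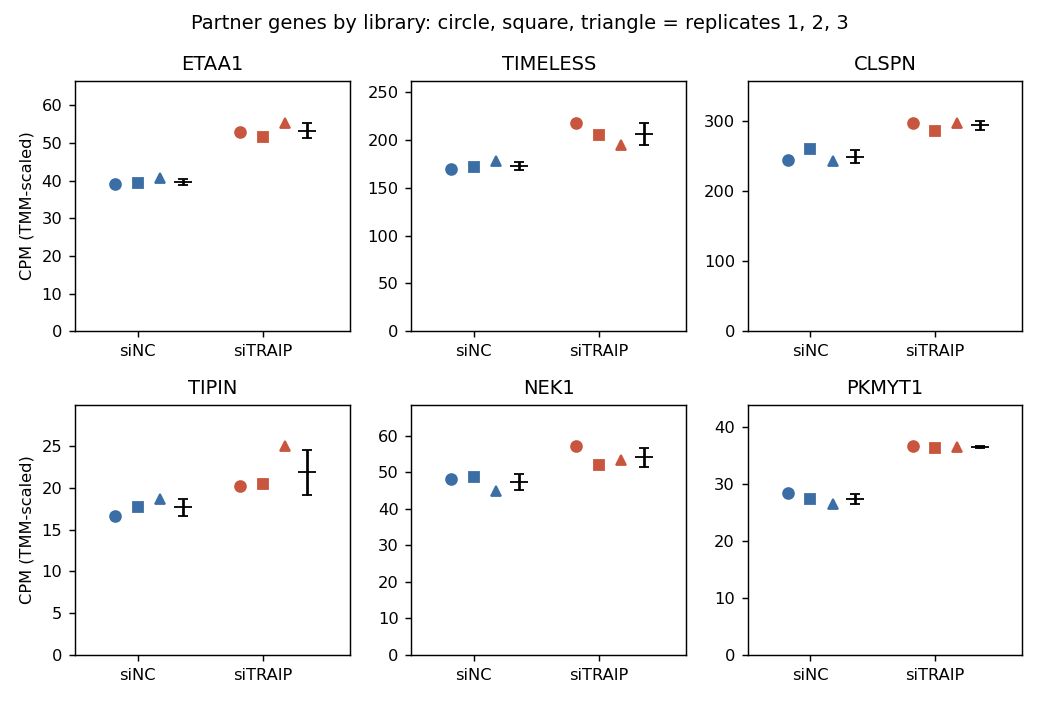
CPM (y axis, linear from 0, TMM-scaled) by library of the 5 ATR branch partners that rose and of PKMYT1; blue is siNC, red is siTRAIP, marker shapes are replicates, and black bars show the mean and SD. In each panel the 3 siTRAIP libraries lie above the 3 siNC libraries.

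On the ATM branch, 14 partners were tested, of which 3 rose and none fell (21.4%, beside 12.8% of all tested genes). MDC1, which reads phosphorylated histone H2AX, rose by 0.21 in log2 (SE 0.04; edgeR, adjusted p = 0.00167), with 8.69% of its exonic bases shared with MDC1-AS1; limma on RPKM gave adjusted p = 0.0548 and 0.0541. RBBP8, a resection factor, rose by 0.13 and RNF8, a ubiquitin ligase at breaks, by 0.16 (log2, edgeR adjusted p = 0.0318 and 0.0388). Each of the latter calls was lost in 10 of 15 alternatives, among them those that left out any one siNC library or siTRAIP replicate 1 or 2. The count of 3 was 1 with library totals and 0 by limma on either RPKM scale. The sensor complex of ATM did not pass: MRE11 (listed as MRE11A) had a log2 fold change of 0.13, RAD50 one of 0.08 and NBN one of 0.01 (edgeR adjusted p = 0.0964, 0.215 and 0.956).

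Of 12 tested genes for cell cycle factors on which the checkpoint acts, 1 rose and 1 fell (16.7%, beside 12.8% of all tested genes). With library totals and by limma on either RPKM scale, 1 rose and 2 fell. PKMYT1, the membrane-bound kinase that with WEE1 holds CDK1 inactive, stood at 28.3, 27.3 and 26.4 CPM in siNC and at 36.6, 36.2 and 36.4 CPM in siTRAIP, a rise of 0.41 in log2 (SE 0.05; edgeR, adjusted p = 5.91e-06). In antisense, PAQR4 and KREMEN2 cover 31.6% of its exonic bases, so the value is uncertain. The WEE1 to PKMYT1 ratio of RPKM was 0.429 ± 0.0283 in siNC and 0.300 ± 0.0101 in siTRAIP (SD, n = 3 each). The groups did not overlap (exact permutation p = 0.1, the smallest possible). PKMYT1 had already been called from the same libraries, so the ratio adds no separate support. PLK1, the mitotic kinase that marks WEE1 and CLSPN for destruction during recovery, fell by 0.23 (log2, SE 0.04, edgeR adjusted p = 5.41e-04), with 12.9% of exonic bases shared with opposite-strand genes. The phosphatase genes CDC25A, CDC25B and CDC25C had log2 fold changes of 0.12, -0.02 and 0.02 and did not pass (edgeR adjusted p = 0.198, 0.848 and 0.933).

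Recovery factors, related kinases and p53 targets complete the network. The shares called in these lists stand beside 12.8% of all tested genes. Of 14 recovery and turnover genes 1 rose (7.14%): USP1, a deubiquitinase of FANCD2 and PCNA, by 0.16 (log2, edgeR adjusted p = 0.024), which no longer passed once siNC replicate 1 or 3 or siTRAIP replicate 3 was left out, or under 4 other settings. With library totals, and by limma on either RPKM scale, none of the 14 rose and 2 fell. Of 9 genes of related kinases and their assembly factors 1 rose (11.1%): PRKDC, the catalytic subunit of DNA-dependent protein kinase, by 0.15 (log2, edgeR adjusted p = 0.0112), which no longer passed once any one siNC library was left out (edgeR adjusted p = 0.0507 to 0.067). With library totals PRKDC was at 0.09 (edgeR adjusted p = 0.108), and none of the 9 rose and 2 fell. By limma on log2(RPKM + 0.1) and log2(RPKM + 1) PRKDC was at 0.09 on each (adjusted p = 0.121 and 0.119), and none of the 9 passed. TELO2, TTI1 and TTI2, which stabilise ATR and ATM proteins, did not pass. Of 18 p53 target genes 1 rose and 2 fell (16.7%). XPC, a nucleotide excision repair gene, rose by 0.38 (log2, edgeR adjusted p = 1.03e-05) with 30.4% of its exonic bases shared with other genes. GADD45A fell by 0.15 and TP53INP1 by 0.58 (log2, edgeR adjusted p = 0.0388 and 0.0475). Leaving out any one of 5 libraries ended either call, siTRAIP replicate 3 being the exception, and robust=FALSE ended both (edgeR adjusted p = 0.0643 and 0.066). TP53INP1 was low, at a mean of 2.39 CPM in siNC and 1.56 CPM in siTRAIP. Its call was also lost with DESeq2 (adjusted p = 0.0862) and with halved counts (edgeR adjusted p = 0.0508). The list held 1 higher and 3 lower with library totals, and 1 higher and 0 lower by limma on either RPKM scale. CDKN1A, the CDK inhibitor that p53 induces, had a log2 fold change of 0.49 and did not pass (edgeR adjusted p = 0.0953). It was also low, at 1.81, 1.95 and 2.16 CPM in siNC and 2.53, 3.78 and 2.10 CPM in siTRAIP.

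**Figure D5:**
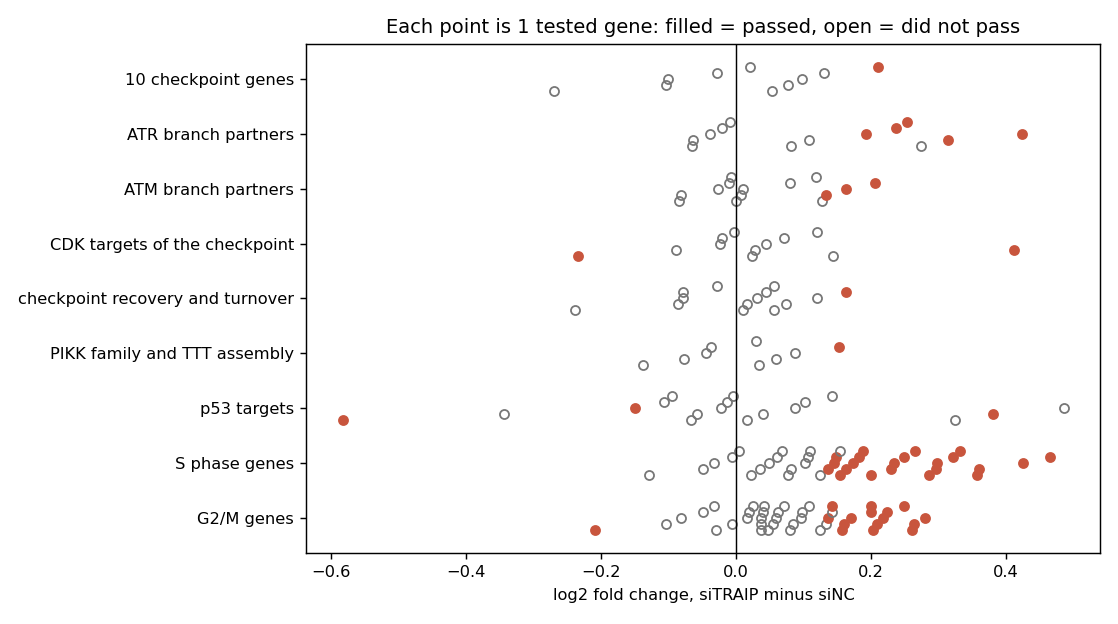
Log2 fold change (x axis, siTRAIP minus siNC) of every tested gene in the 10 checkpoint genes, the 6 partner lists and the 2 cell cycle lists; filled red points passed and open points did not. Filled points lie on both sides of 0 for the cell cycle factors on which the checkpoint acts, the p53 targets and the G2/M genes. In the other lists they lie to the right of 0.

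Cell cycle phase was described with lists of S phase and G2/M genes. The shares called in both lists stand beside 12.8% of all tested genes. Of 39 S phase genes, none of them among the 10, 22 rose and none fell (56.4%, list median 0.15), and their summed level was 1041 to 1057 RPKM in siNC and 1154 to 1216 RPKM in siTRAIP. Of 43 G2/M genes 15 rose and 1 fell (37.2%, list median 0.08), with summed levels of 2921 to 2942 RPKM in siNC and 3037 to 3094 RPKM in siTRAIP. Among the siTRAIP libraries, replicate 3, in which CHEK1 was highest, had the highest S phase sum (1216 RPKM) and the lowest sums of G2/M genes (3037 RPKM) and of ATR branch partners (244.8 RPKM). With library totals in place of TMM factors 13 S phase genes rose and 1 fell, and 9 G2/M genes rose and 2 fell. By limma on log2(RPKM + 0.1) 12 S phase genes rose, and 5 G2/M genes rose and 1 fell. In bulk RNA a larger share of cells in a phase and more RNA per cell cannot be told apart, and the part of cell cycle position in the CHEK1 rise was not tested. Over the 6 libraries, log2 CPM of CHEK1 ran most closely with that of CFAP126, MATR3 and CMTR2 among 9168 protein-coding genes averaging 5 CPM or more (Pearson r = 0.997, 0.995 and 0.995). This is a description in which all points share the libraries and the group difference, with log2 fold changes of 0.32, 0.13 and 0.26 for the 3 genes. MATR3 was not called (edgeR adjusted p = 0.0703). The 3 were picked as the highest of 9168 correlations over 6 libraries, so their r values are high by selection.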

How the data were processed

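Total RNA of T24 cells (3 siNC and 3 siTRAIP libraries; groups and replicate numbers from the titles) was sequenced with a stranded mRNA kit, per the labels' protocols. The authors deposited whole-number read counts per gene and RPKM values; the RPKM values equal count over gene length over summed counts within a relative difference of 1.3e-06. The build GRCh38 and the tools featureCounts, Subread 1.5.1 and Trimmomatic 0.36 are listed, without roles, in the submitters' processing notes; no source used here names the aligner, annotation release or strand setting. Counts from 1 to 10 were even in 70.2% of cases, so both reads of a pair may have been counted.

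The deposited counts were tested with edgeR 4.0.16 (R 4.3.3; filterByExpr, TMM, robust quasi-likelihood F-test, 2-sided, Benjamini-Hochberg over 18685 genes, threshold 0.05). The SE is the log2 fold change over the square root of F. The common biological coefficient of variation was 5.73%. Exon sharing was computed from the exons of the deposited table, and pseudogenes were counted by name in GENCODE v29. The script was checked on simulated counts. Members, the 12 other lists (200 entries, 193 found, 3 under older names) and the naming rule were chosen with earlier results of these data known; the rule names all members, TRAIP, and per partner list up to 4 called genes with the smallest adjusted p plus those against the majority. Other genes in the text (MRE11, RAD50, NBN, the CDC25 genes, CDKN1A, TELO2, TTI1, TTI2 and single cell type markers) were added after their values were seen. Alternatives were DESeq2 1.42.0, other filters, library totals, robust=FALSE, halved counts, limma 3.58.1 on log2(RPKM + 0.1) and log2(RPKM + 1), the replicate number as a block, and each library left out.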

Additional observations from a re-analysis of the deposited data

How the results depend on the processing

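Of 150 values of the 10 checkpoint genes under 15 alternatives, 130 kept their direction and side of the threshold, 7 lost the call (all CHEK1), 2 gained one and 11 changed sign, all of them in genes that did not pass. Of 240 values of 16 other named genes, 179 stayed, 61 lost the call and none changed sign. The CHEK1 log2 fold change ran from 0.12 to 0.26, and that of TRAIP from -1.21 to -0.99 with every call kept. The number of checkpoint genes called (1, higher) was 0 on both RPKM scales, and with library totals it was 2, with 0 higher and 2 lower (RAD9A and RAD1). With 1 library left out it ran from 0 to 1 called, 0 to 1 higher and 0 lower; it was 0 without siNC replicate 1, 2 or 3 or siTRAIP replicate 3, with fewer samples in each fit. The ATR branch partners that rose numbered 2 on log2(RPKM + 0.1) and on log2(RPKM + 1), against 5, and 4 to 5 with 1 library left out. All genes called numbered 1520 and 1519 on the RPKM scales, against 2393, and 1480 (without siNC replicate 1) to 2622 (without siTRAIP replicate 3) with 1 library left out. The RPKM scales and library totals share the lack of TMM factors, from 0.971 to 0.987 in the siTRAIP libraries and 1.011 to 1.029 in the siNC libraries, and move the median of all genes to -0.06, -0.03 and -0.06; the cause of the lost calls was not tested further. The sign of ATRIP changed on log2(RPKM + 0.1) and log2(RPKM + 1) (-0.004 each), with library totals (-0.007) and without siNC replicate 3, with a range of -0.013 to 0.093 over the libraries left out. That of TOPBP1 changed under the same settings (-0.04, -0.038, -0.039 and -0.003) and without siTRAIP replicate 3 (-0.006; range -0.006 to 0.034). That of HUS1 changed without siNC replicate 1 or siTRAIP replicate 2 (0.034 each; range -0.11 to 0.034).

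Nothing in the labels ties a siNC library to the siTRAIP library of equal number. Their deviations from the group means had correlations of 0.034, -0.089 and -0.017, so the numbers were not treated as pairing. With the replicate number as a block, 1 checkpoint gene was called (CHEK1, log2 fold change 0.20, edgeR adjusted p = 0.0242), 5 ATR branch partners rose and 2145 genes were called; the block ended the calls of RBBP8, USP1 and GADD45A (adjusted p = 0.0647, 0.0503 and 0.054). Depth limits RAD9A most, with 152 to 299 counts per library.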
